A study of Homo sapiens with 6 samples.

Results

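Cytosolic ribosomal protein genes were taken by symbol from the annotation of the Illumina HumanHT-12 v4 array: symbols of the RPL, RPLP, RPS and RPSA series, without the S6 kinases, the RPS19-binding protein and pseudogenes. Of 107 matching symbols, 11 were kinases or binding protein and 18 were pseudogenes, which left 78 genes, 50 of the large and 28 of the small ribosomal subunit, of 20046 genes with a single symbol. Their RNA was measured in NCI-H460, an established human lung carcinoma line, on 6 arrays with 1 array per group. Parental cells, grown with 10% fetal bovine serum, were left untreated, given a scramble control or given PNAs-A15 for 6 h. A population called rich in cancer stem cells (CSC-rich), obtained from the same line by spheroid culture, was handled in the same 3 ways, and serum is named for the parental culture alone, so that medium and population cannot be told apart. The sources used here do not say what PNAs-A15 is, nor the dose and time of the scramble, and the treated CSC-rich array carries only a shortened name of the agent. Nothing says that the arrays came from separate cultures, and 1 array per group gives no spread between like arrays. The p-values of the main model, which adds treatment and population, rest on how the population difference varies between the 3 treatments. In limma this variation is moderated toward a value estimated over all genes, so a printed SE is not that of a gene's own pairs alone. The variation between treatments mixes the spread between arrays, which may be technical, with any treatment response that differs between the populations.

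The cytosolic ribosome joins a small subunit, which reads the messenger RNA, to a large subunit, which forms peptide bonds and holds the tunnel through which the new chain leaves. Each subunit carries one copy of most of its proteins, and these are made in balanced amounts. The messenger RNAs of most ribosomal proteins begin with a C and a run of pyrimidines at the 5′ end, the terminal oligopyrimidine (TOP) start, through which mTOR signalling and the protein LARP1 control their translation, a step that RNA arrays do not measure. Some ribosomal proteins also act outside the ribosome, such as RPL5 and RPL11, which bind MDM2.

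The starts of 11 of the genes are shown because the results below turn on them or on their paralogs. Each line holds the 25 bases before the annotated start and the first 20 bases of the transcript, 5′ to 3′ on the strand of the gene, from RefSeq on GRCh38.p14. Capitals mark the unbroken pyrimidine run of those starts that have a C followed by at least 4 pyrimidines, and a line without capitals has no such start.
RPS23 (chr5:82278335-82278379, minus strand): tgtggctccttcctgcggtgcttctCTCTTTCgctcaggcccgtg
RPL26 (chr17:8383174-8383218, minus strand): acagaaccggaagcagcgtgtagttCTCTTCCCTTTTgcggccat
RPL22 (chr1:6199576-6199620, minus strand): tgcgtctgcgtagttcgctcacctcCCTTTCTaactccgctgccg
RPL39 (chrX:119791611-119791655, minus strand): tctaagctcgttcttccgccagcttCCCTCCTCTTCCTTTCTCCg
RPS21 (chr20:62387078-62387122, plus strand): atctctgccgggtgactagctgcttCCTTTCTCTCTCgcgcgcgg
RPL29 (chr3:51995876-51995920, minus strand): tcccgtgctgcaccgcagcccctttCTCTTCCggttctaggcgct
RPS9 (chr19:54200833-54200877, plus strand): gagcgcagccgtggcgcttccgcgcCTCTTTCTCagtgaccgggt
RPS3 (chr11:75399493-75399537, plus strand): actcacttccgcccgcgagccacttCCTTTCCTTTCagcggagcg
RPL22L1 (chr3:170870176-170870220, minus strand): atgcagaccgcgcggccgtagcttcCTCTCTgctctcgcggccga
RPL36AL (chr14:49620607-49620651, minus strand): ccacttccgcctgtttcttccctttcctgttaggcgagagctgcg
RPS27L (chr15:63157458-63157502, minus strand): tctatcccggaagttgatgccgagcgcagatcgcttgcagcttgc

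A start with a C followed by at least 4 pyrimidines, read on the strand of the gene, was annotated for 45 of the 66 ribosomal protein genes with a promoter entry (68.2%), and for 1404 of all 27305 promoters (5.14%). The share was 68.3% in the large subunit (28 of 41) and 68.0% in the small subunit (17 of 25). Of 8 paralogs with an entry, RPL22L1 was 1 of 2 that had it, whereas RPL36AL, with a shorter pyrimidine run, and RPS27L did not. The genes printed above with large fitted values above 0 in CSC-rich cells (RPS23, RPL26, RPL22, RPL39) and those below 0 (RPS21, RPL29) all had such a start, with runs of 7 to 19 bases. A match describes these letters at the annotated start and is no measurement of translation.

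Ribosomal protein genes were among the brightest on every array. Their 128 probes held 4.91%, 4.93% and 5.63% of the summed signal on the untreated, scramble and PNAs-A15 arrays of parental cells, and 5.54%, 5.07% and 5.68% on those of CSC-rich cells. The CSC-rich share was above the parental share in each of the 3 pairs, and the highest parental share lay between the CSC-rich values, so the populations overlapped. The median ribosomal protein gene sat between the 97.9th and the 98.7th percentile of the genes on an array. Large subunit genes held 2.66% to 3.06% of the signal and small subunit genes 2.24% to 2.66%. On an array of bulk RNA, fewer cells and less RNA per cell cannot be told apart.

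Of the 78 genes, 76 were tested (48 of the large and 28 of the small subunit) among 12101 genes with a probe detected on at least 2 arrays. A probe counted as detected where its deposited detection p was under 0.05. The genes not tested were RPL10, with both probes undetected on every array, and RPL3L, the muscle paralog of RPL3. RPLP0, RPSA and RPS27A were not analysed here. Levels were compared as log2 values after background correction and quantile normalization, with 1 probe, the brightest, standing for each gene.

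Some arrays stood apart from the rest. The parental PNAs-A15 array detected 36.5% of all probes and the CSC-rich scramble array 38.5%, against 41.2% to 42.8% on the others. Over 21526 probes the Pearson r of the parental PNAs-A15 array was 0.846 to 0.870 with each other array, and 0.914 to 0.992 among the remaining 5, as a description. Results are therefore also given without these 2 arrays. Of the cell type markers, the keratins KRT8 and KRT19 were measured, whereas KRT18, EPCAM and CDH1 were detected on fewer than 2 arrays, as were the leukocyte markers PTPRC and CD3E, the fibroblast marker COL1A1 and all 3 endothelial markers. KRT8 was at -1.65 ± 0.34 in CSC-rich against parental cells (limma adjusted p 0.063) and KRT19 at -0.65 ± 0.66, and their summed signal was 14355 to 26834 on the parental and 5019 to 14113 on the CSC-rich arrays. Of 4 fibroblast markers 3 were measured, with a summed signal of 5682 to 7321 on the untreated and scramble arrays of parental cells, 1327 on their PNAs-A15 array and 2098 to 2261 on the CSC-rich arrays. COL3A1 was at -4.67 in the untreated pair and -3.79 for PNAs-A15 against scramble in parental cells, PDGFRB at 1.05 ± 0.39 and DCN at 0.07 ± 0.36 between populations. Of 4 immune markers with a probe 2 were measured, CD14 and LYZ, with a summed signal of 554.2 to 734.1 on the parental and 397.8 to 417.2 on the CSC-rich arrays. For PNAs-A15 against scramble in parental cells CD14 was at 1.54, and LYZ, undetected with scramble, at least 4.88-fold higher. Their part in the results was not tested.

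How CSC-rich cells differed from parental cells was examined first. RPS23, a small subunit protein at the decoding centre, was the only ribosomal protein gene past the threshold. Its deposited signal was 6756, 5777 and 4037 on the untreated, scramble and PNAs-A15 arrays of parental cells, and 21587, 20085 and 17259 on those of CSC-rich cells. The lowest CSC-rich array was above the highest parental array by a wide margin, so the groups did not overlap. The fitted log2 difference was 1.94 ± 0.33 (SE, n = 3 arrays per population), or 3.84-fold, with a limma adjusted p of 0.037 in a model that adds treatment and population. The difference was 1.76, 2.27 and 1.79 in the untreated, scramble and PNAs-A15 pairs. Without the CSC-rich scramble and parental PNAs-A15 arrays, where only a model of population alone could be fitted, it was 1.76 ± 0.19 (limma adjusted p 0.0015). The arrays left were untreated and scramble in parental cells and untreated and PNAs-A15 in CSC-rich cells, so treatment and population are partly mixed there. The arrays to leave out were chosen after the data were seen, so the smaller p adds no support. With population alone over all 6 arrays the difference was 1.94 (limma adjusted p 0.0095). The call was lost on unnormalized signals (limma adjusted p 0.078), without the filter on detection (0.088) and without the untreated (0.10) or the scramble arrays (0.20).

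**Figure D1:**
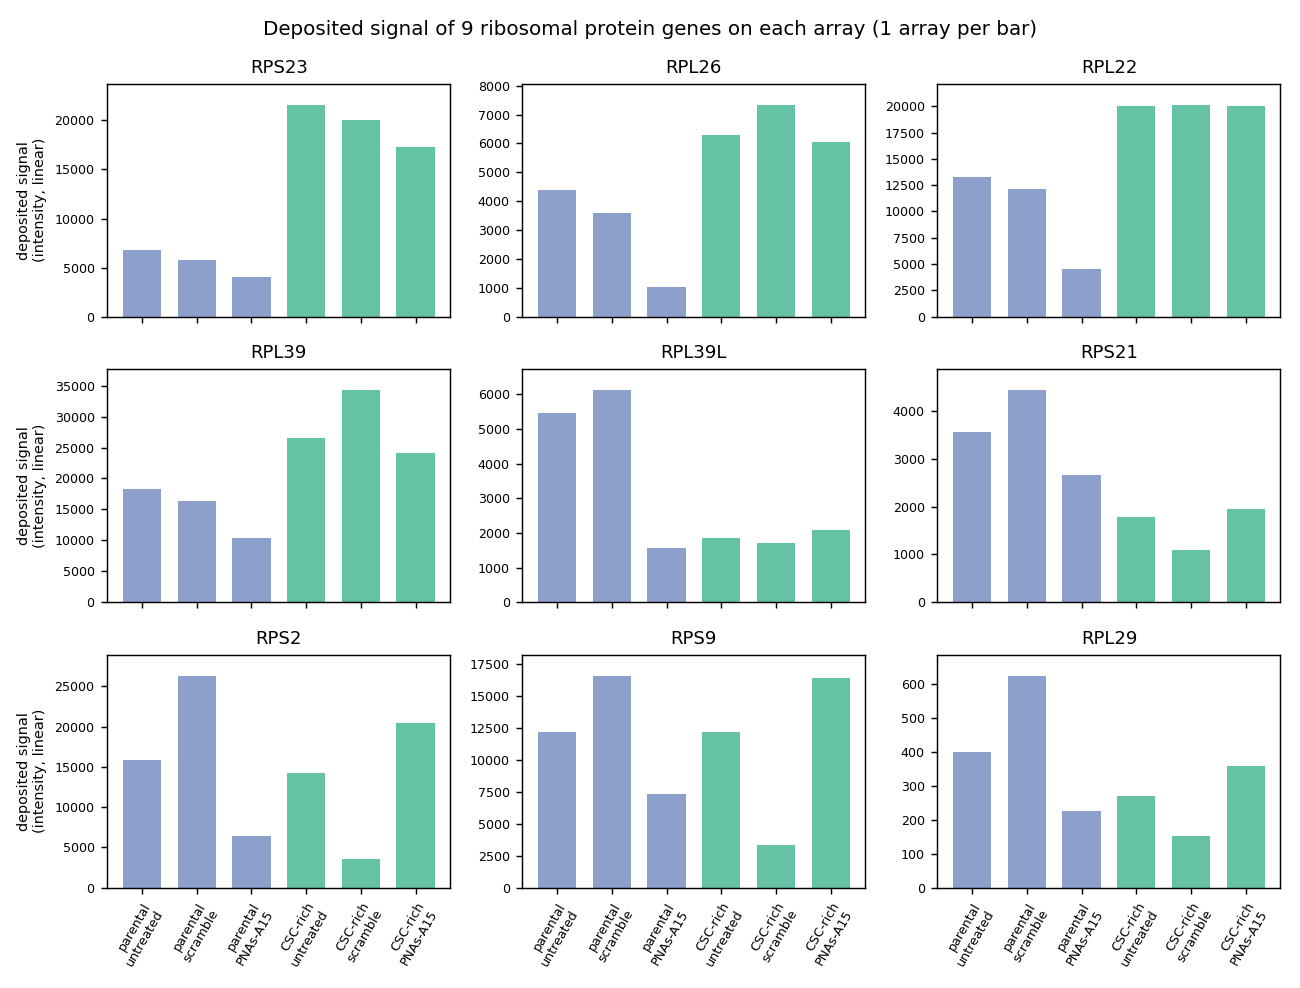
Deposited signal (linear intensity, each axis from 0) of 9 ribosomal protein genes on each of the 6 arrays, blue for parental and green for CSC-rich cells, with 1 array per bar and therefore no error bars. RPS23 lies between 4037 and 6756 on the parental arrays and between 17259 and 21587 on the CSC-rich arrays, while RPS2 and RPS9 are lowest on the CSC-rich scramble array.

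Over all genes tested, 0.859% were called higher and 1.49% lower in CSC-rich cells, against 1 higher and 0 lower of the 76 ribosomal protein genes. At an unadjusted limma p under 0.05, 7 of them passed (4 higher, 3 lower), 9.21% against 19.1% of all genes. The fitted difference was within 0.25 of 0 for 49 of them (64.5%), and for 31.0% of all genes. Among the 49 were all 16 genes with a signal above 40000 on every array, at -0.08 to 0.07. Most of all genes are dimmer than this family, and the part of brightness in these shares was not tested. In 13 genes all CSC-rich arrays lay above all parental arrays, 17.1% against a background of 16.7%, and in 4 all lay below, 5.26% against 17.2%. These counts were 6 and 5 under median scaling (7.89% and 6.58%, against 12.1% and 17.6% of all genes). Without normalization they were 9 and 1 (11.8% and 1.32%, beside 16.2% and 15.8%). The median log2 difference was 0.03 over the ribosomal protein genes and 0.01 over all genes. The family median thus lay near that of all genes, and single genes lay on either side of it.

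Among the genes above the family median, several encode proteins of the large subunit. RPL26, a large subunit protein also known to bind p53 messenger RNA, had signals of 4397, 3579 and 1031 on the parental arrays (untreated, scramble, PNAs-A15) and 6308, 7337 and 6055 on the CSC-rich arrays. RPL22, an RNA-binding protein of the large subunit, had 13255, 12163 and 4523 on the parental arrays and 20064, 20132 and 20037 on the CSC-rich arrays. RPL39, a short protein that lines the exit tunnel, had 18358, 16361 and 10300 on the parental arrays and 26612, 34251 and 24053 on the CSC-rich arrays. In these genes the populations did not overlap, and the parental PNAs-A15 array was the lowest of the 6.

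RPL26 had a fitted log2 difference of 1.42 ± 0.39 (limma adjusted p 0.13), RPL22 of 1.22 ± 0.37 (0.15) and RPL39 of 0.98 ± 0.34 (0.19), none past the threshold. In the untreated pair alone these were 0.67, 0.65 and 0.53, smaller than the fitted values. Without the 2 arrays that stood apart, and with population alone in the model, they were 0.86, 0.76 and 0.60. RPL28, RPL35A, RPL13 and RPL21 followed, all of the large subunit and all with the same sign in every pair, with fitted values of 0.75 ± 0.33, 0.73 ± 0.34, 0.50 ± 0.32 and 0.46 ± 0.32. RPL35A is one of the genes mutated in Diamond-Blackfan anaemia, an inherited failure of red cell production.

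On the other side, RPS21, a small subunit protein, had signals of 3554, 4431 and 2663 on the parental arrays (untreated, scramble, PNAs-A15) and 1774, 1087 and 1951 on the CSC-rich arrays, with no overlap. Its fitted log2 difference was -1.21 ± 0.35 (limma adjusted p 0.14), and -0.98, -1.77 and -0.87 in the 3 pairs. RPL39L, the paralog of RPL39 that is best known from testis, had 5470, 6121 and 1553 on the parental arrays and 1840, 1714 and 2098 on the CSC-rich arrays. By signal the parental PNAs-A15 array was the lowest of the 6, and after normalization it lay just above the highest CSC-rich array (10.99 against 10.93, log2). The fitted value was -1.08 ± 0.42 (limma adjusted p 0.23), with -1.60 and -1.57 in the untreated and scramble pairs and -0.06 in the PNAs-A15 pair.

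RPL29, a heparin-binding protein of the large subunit and among the dimmest of the family, had signals of 400.4, 625.4 and 226.0 on the parental arrays and 271.5, 152.3 and 359.4 on the CSC-rich arrays. It was not detected on the CSC-rich scramble array, where it was at least 6.64-fold lower than on the parental scramble array. That bound is by normalized values and exceeds the ratio of these signals. Its fitted log2 difference was -1.22 ± 0.55 (limma adjusted p 0.29), and after normalization its lowest parental value lay just above its highest CSC-rich value (7.82 against 7.78, log2), although the signals overlapped. RPL36A, which sits near the exit site for transfer RNA, was at -0.79 ± 0.32 (limma adjusted p 0.25), and RPS25 and RPL38 were at -0.54 ± 0.38 and -0.08 ± 0.32. These were the only 6 genes lower in all 3 pairs, beside 15 that were higher in all 3, or 7.89% and 19.7% of the 76 genes, against 22.2% and 22.3% of all genes.

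**Figure D2:**
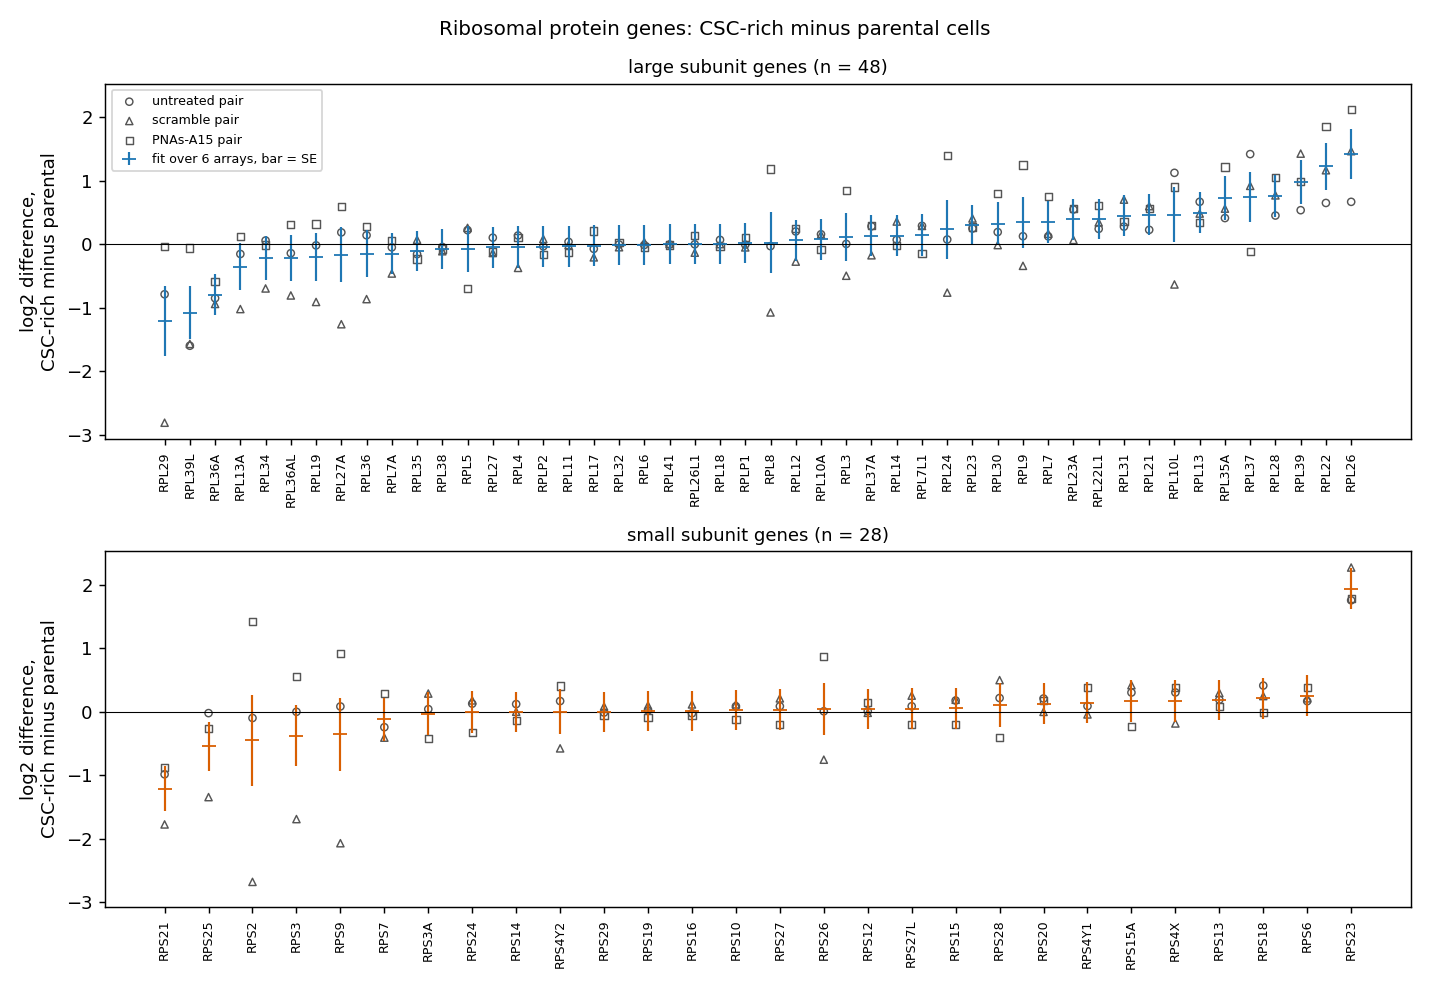
Log2 difference between CSC-rich and parental cells for the 48 large and 28 small subunit genes tested, ordered by the fitted value: coloured marks with bars are the fit over 6 arrays and its SE, and open symbols are the single-array pairs. Most genes lie near 0, RPS23 is the highest at 1.94, and the pairs of RPS2, RPS9 and RPL29 are far apart.

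The calls depended on the arrays used and on the form of the model. Without either PNAs-A15 array, 7 ribosomal protein genes (9.21%) were past limma's threshold: RPS23, RPL37 and RPL26 were higher, and RPL29, RPL39L, RPS2 and RPS21 lower, against 19.5% of all genes. The treatment term could not be fitted without the CSC-rich scramble and parental PNAs-A15 arrays. With population alone over the 4 arrays left, 11 genes (14.5%) were past limma's threshold, 8 higher and 3 lower, against 30.5% of all genes, and with population alone over all 6 arrays 1 gene, RPS23, was, against 5.35%. The genes called in both fits with 4 arrays were RPL26, RPL37, RPL39L, RPS21 and RPS23. RPL37, a zinc-binding protein of the large subunit, was 1.17 ± 0.32 higher without the PNAs-A15 arrays (limma adjusted p 0.019) and 1.49 ± 0.17 in the other of these (0.0016). Over the 6 arrays it was at 0.74 ± 0.40 (limma adjusted p 0.36), since its PNAs-A15 pair was at -0.11 beside 1.42 and 0.92 in the untreated and scramble pairs.

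In the untreated pair, where neither array stood apart, 3 of the 76 genes lay at least 2-fold above their parental level in CSC-rich cells and 1 at least 2-fold below it (3.95% and 1.32%), against 6.62% and 5.91% of all genes. The 3 higher were RPS23 (1.76), RPL37 (1.42) and RPL10L, and the lower one was RPL39L (-1.60). RPL10L, a paralog of RPL10 known from testis, was not detected on the untreated parental array, so its value is a bound, at least 2.04-fold. In the scramble pair 4 genes lay 2-fold or more above and 10 below, against 15.9% and 13.2% of all genes, and in the PNAs-A15 pair 9 were higher and 0 lower, against 18.4% and 20%. Under median scaling, where the median of all genes in the PNAs-A15 pair was -0.60, that pair had 3 higher and 23 lower instead (3.95% and 30.3%, against 12.8% and 35.0% of all genes). Without normalization it had 17 and 0 (22.4% and 0%, against 23.1% and 5.01%). These pairs have no replicates and were not tested.

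The large and small subunits were then set beside each other. The median difference between CSC-rich and parental cells was 0.02 over 48 large subunit genes and 0.03 over 28 small subunit genes. Large minus small medians were 0.02, -0.13 and 0.26 in the untreated, scramble and PNAs-A15 pairs, with an SD of 0.19 over the pairs. The subunits therefore differed by less than the spread between pairs. Within 0.25 of 0 lay 28 of the 48 large subunit genes (58.3%) and 21 of the 28 small subunit genes (75%). The brightest genes of both subunits moved little, as given below, and the part of brightness in these shares was not tested. Among the stalk proteins that recruit translation factors, RPLP1 was at 0.02 and RPLP2 at -0.04 (SE 0.32 for both), and RPS6, the substrate of S6 kinase, was at 0.26 ± 0.32.

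How far a gene could be seen to move went with its brightness. The 16 genes with a signal above 40000 on all 6 arrays include RPL41, the shortest protein of the ribosome, and RPS12 and RPS29. They had fitted population differences of -0.08 to 0.07 and a median range over the 6 arrays of 0.14. The limit of 40000 on every array bounds how far such a gene can range, so this small range is partly set by the definition. In the 10 genes with signals on both sides of 40000 the differences were -0.20 to 0.26 and the median range was 0.46. The 50 genes under 40000 on all arrays had differences of -1.22 to 1.94 and a median range of 0.93. The brightest ribosomal protein gene of an array had a signal of 59561 to 62474. Whether the upper end of the signal scale narrows these differences was not tested. With the brightest probe under 40000 standing for each gene, the large subunit median was 0.10 above the small one.

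**Figure D3:**
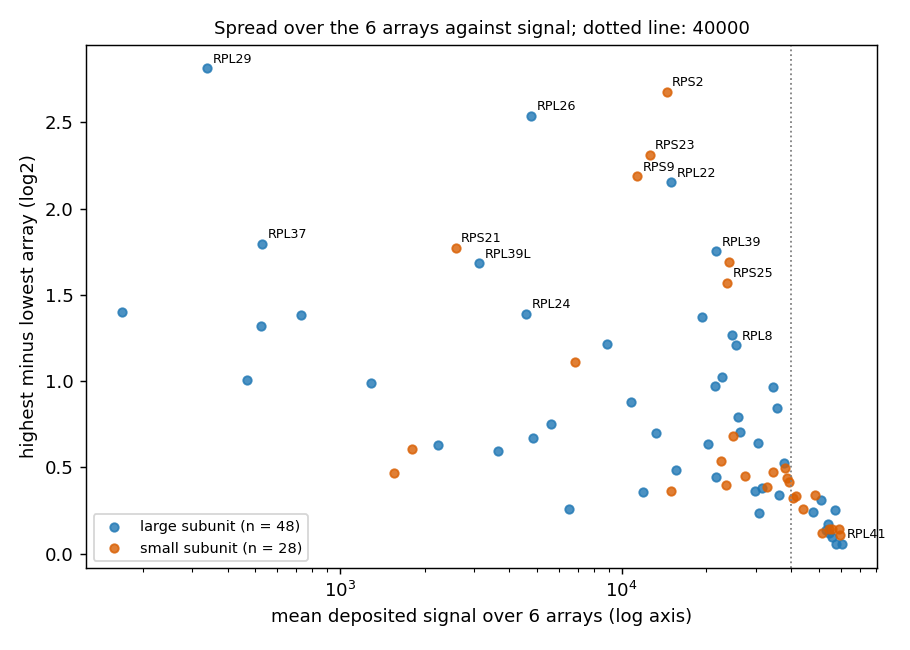
Range of the normalized log2 level over the 6 arrays against the mean deposited signal (log axis) of the 76 genes tested, with large subunit genes in blue and small subunit genes in orange. Genes to the right of the dotted line at 40000 lie low, with a median range of 0.14 for those above it on all arrays, while RPL29 and RPS2 have ranges of 2.81 and 2.68.

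Paralogs did not always follow their partners. RPL39 and RPL39L differed in sign (0.98 ± 0.34 and -1.08 ± 0.42), and both RPL39L probes lay below 0 in all 3 pairs. RPL22L1, which can take the place of RPL22 in the ribosome, was at 0.40 ± 0.32 beside 1.22 ± 0.37 for RPL22. RPL26L1 had signals of 7128, 7461 and 5384 on the parental arrays and 6684, 5433 and 6954 on the CSC-rich arrays, overlapping throughout, while its partner RPL26 did not overlap. RPL36AL was at -0.21 ± 0.36 beside -0.79 ± 0.32 for RPL36A. RPS27 and its p53-responsive paralog RPS27L were at 0.03 ± 0.32 and 0.05 ± 0.32, RPL7 and RPL7L1 at 0.35 ± 0.33 and 0.14 ± 0.33, and RPS4X and RPS4Y1 at 0.17 ± 0.33 and 0.14 ± 0.32. The differences between partners were not tested. Ribosomal protein genes have many near-identical processed copies, and signal from these cannot be told apart from that of the parent gene.

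The second comparison asked what PNAs-A15 changed relative to the scramble control. In limma's additive fit over both populations 0% of all genes were called, 503 had an unadjusted p under 0.05, and 0 of the 76 ribosomal protein genes did, the lowest unadjusted limma p being 0.051. Without the CSC-rich PNAs-A15 array, only the parental PNAs-A15 array stands for that treatment. The fit then sets that array against a scramble level fitted over the remaining arrays of both populations. Under median scaling 85 genes passed. The populations are therefore described one at a time, without a test.

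In parental cells, 1 ribosomal protein gene was at least 2-fold higher on the PNAs-A15 array than on the scramble array and 6 were at least 2-fold lower (1.32% and 7.89%), against 20.9% and 16.8% of all genes. RPL37 was the higher one at a log2 difference of 1.67, from a deposited signal of 394.6 with scramble to 509.8 with PNAs-A15, a smaller ratio than the normalized values give. RPS28 (0.68) and RPL5 (0.67) came next. The lower genes were RPS2 (-1.67), RPL39L (-1.35), RPL8 (-1.21), RPL24 (-1.14), RPL9 (-1.10) and RPL26 (-1.08). Other RPL9 probes were at -1.51 and 0.93, so its probes differed in direction. The second RPL39L probe was at -1.19, and the second RPL8 probe was undetected with PNAs-A15. RPS2 lies at the channel through which messenger RNA enters the small subunit, and RPL8 lies near the centre that forms peptide bonds. This count moved with the scaling. Median scaling gave 37 higher and 0 lower (48.7% and 0%, against 37.8% and 11.5% of all genes), with the median of all genes at 0.68. Without normalization 0 were higher and 15 lower (0% and 19.7%, against 1.91% and 26.4%). RPS2 was at -0.83 and -2.05 in these settings, and RPL37 at 1.77 and 0.37. Relative to the median of all genes, that of the ribosomal protein genes was at -0.23 after quantile normalization, 0.24 under median scaling and 0.11 on unnormalized signals, so the direction for the family depends on the scaling. The scramble and untreated arrays of parental cells, in contrast, had 0 of the 76 genes 2-fold apart, against 0.438% of all genes higher and 0.165% lower.

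In CSC-rich cells, 9 ribosomal protein genes were at least 2-fold higher on the PNAs-A15 array than on the scramble array and 0 lower (11.8% and 0%), against 6.34% and 3.04% of all genes. RPS2 led with signals of 14245, 3520 and 20451 on the untreated, scramble and PNAs-A15 arrays. RPS9, another small subunit protein at the entry channel, had 12226, 3339 and 16403. RPS3, which also lies at that channel and is linked to DNA repair, had 24245, 9136 and 32435. In each the scramble array alone was low, and the untreated and PNAs-A15 arrays lay nearer to each other.

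The PNAs-A15 minus scramble values were 2.43 for RPS2, 2.19 for RPS9, 1.53 for RPS3 and 1.37 for RPL27A, and RPL29, undetected with scramble, was at least 3.70-fold higher. The lowest values belonged to RPL39 (-0.77), RPL22L1 (-0.54), RPS23 (-0.52), RPL26 (-0.42) and RPS3A (-0.38). Against the untreated array instead, PNAs-A15 had 0 genes 2-fold apart in either direction, where 0.256% of all genes were higher and 0.19% lower. Scramble minus untreated had 0 genes 2-fold higher and 7 lower (9.21%), against 0.735% and 2.88% of all genes. They were RPS2 (-1.93), RPS9 (-1.79), RPS25 (-1.23), RPS3 (-1.19) and RPL27A (-1.17), with RPL29 and RPL10L, which were not detected on the scramble array and have only bounds there, at least 2.41-fold and at least 1.74-fold lower. With undetected probes at their bound the count was 6 (7.89%, without RPL10L), against 2.06% of all genes lower. RPS25, a small subunit protein needed by some viral internal entry sites, had a signal of 9104 on that array and of 24731 to 28714 on the other 5. The comparisons share the scramble array, which detected fewer probes than the other CSC-rich arrays.

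The arrays that stood apart were lower in some of the same genes. Of the 76 genes, 10 were at least 0.5 lower (log2) both on the parental PNAs-A15 array against scramble and on the CSC-rich scramble array against untreated, 13.2% against 5.73% of all genes (by normalized values, 3.95% against 3.37% under median scaling and 23.7% against 12.4% on unnormalized signals). With undetected probes at their bound the count was 9, 11.8% against 4.68% of all genes, since RPL10L was not detected on either of these arrays and does not reach the limit by its bounds. The 9 were RPL3, RPL8, RPL9, RPL24 and RPL29 of the large subunit and RPS2, RPS3, RPS9 and RPS26 of the small subunit. Of these, RPS2, RPL24 and RPL29 were the 3 also found under median scaling. Other probes did not all follow. An RPL9 probe detected on all 6 arrays was at 0.93 and 0.41 in these differences, and another at -1.51 and -0.81. A second RPL3 probe, also detected on all 6, was at 0.22 and 0.32. The second probes of RPL29 and RPS9 were below 0 in both, and those of RPL8 and RPS26 were undetected on both arrays that stood apart. These differences share no array, but both rest on an array with few detected probes. Across the 76 genes they correlated at a Pearson r of 0.42 (0.80 over 28 small and 0.21 over 48 large subunit genes), and at 0.15 over all 12101 genes, as a description, since genes of an array share its RNA and its normalization. RPL26, RPL22, RPL39 and RPL39L were low on the parental PNAs-A15 array only, at -1.08, -0.99, -0.33 and -1.35, and above 0 on the CSC-rich scramble array.

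**Figure D4:**
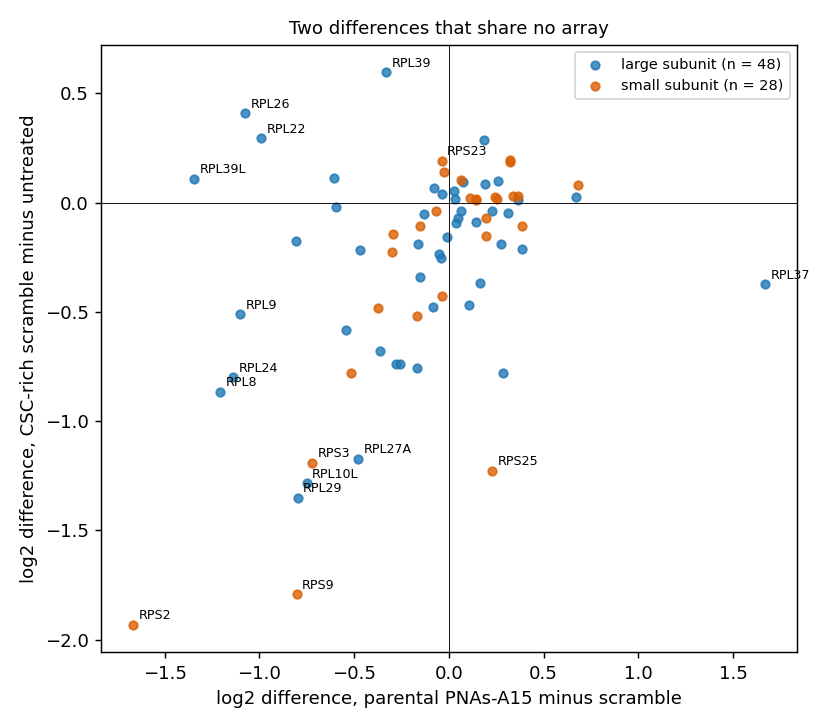
Log2 difference of the parental PNAs-A15 array from the parental scramble array (horizontal) against that of the CSC-rich scramble array from the CSC-rich untreated array (vertical), 1 point per gene, with large subunit genes in blue and small subunit genes in orange. RPL10L (both axes) and RPL29 (vertical axis) are plotted at values below detection. RPS2 is lowest on both axes (-1.67 and -1.93), and RPL37 stands alone at the right (1.67).

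Several probes were detected for 34 of the genes, which allows the probes of a gene to be set beside each other. The range of the population difference over the probes of a gene had a median of 0.34, against 0.42 over 3159 genes with several probes. It was at least 1 in 7 genes (20.6%, against 18.8% of all such genes). Probes differed in sign in 13 of the 34 genes, against 930 of all 3159 such genes, a larger share in the family. Such a change of sign can be small, as in RPL17 (-0.08 to 0.0066). Probes at least 2-fold apart from 0 in opposite directions were found in 0 of the 34 genes and in 10 of all such genes. For PNAs-A15 against scramble in parental cells, probes differed in sign in 14 of the 34 genes against 1466 of all such genes, a smaller share in the family. The widest were RPS15 (-1.62 to 0.06), RPL36 (-1.54 to -0.15), RPL13 (-0.79 to 0.50), RPS29 (0.0040 to 1.24) and RPS24 (-1.22 to -0.0049). In each of these genes the probe furthest from 0 was not the one that stood for the gene. It was therefore dimmer by the rule that the brightest probe stands for a gene.

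In other genes the probes agreed. Both RPL29 probes (-1.60 and -1.22) and both RPL39L probes (-1.42 and -1.08) lay below 0 in every pair. The RPS9 probes were at -0.35 and -0.32, and both were low on the CSC-rich scramble array against untreated, at -1.79 and -1.67. For PNAs-A15 against scramble in parental cells, probes of a gene were at least 1 apart in 32.4% of the 34 genes and in 56.4% of all genes with several probes. RPS23, RPL26, RPL22, RPL39, RPS21 and RPS2 had 1 detected probe each, so no second probe bears on their values.

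**Figure D5:**
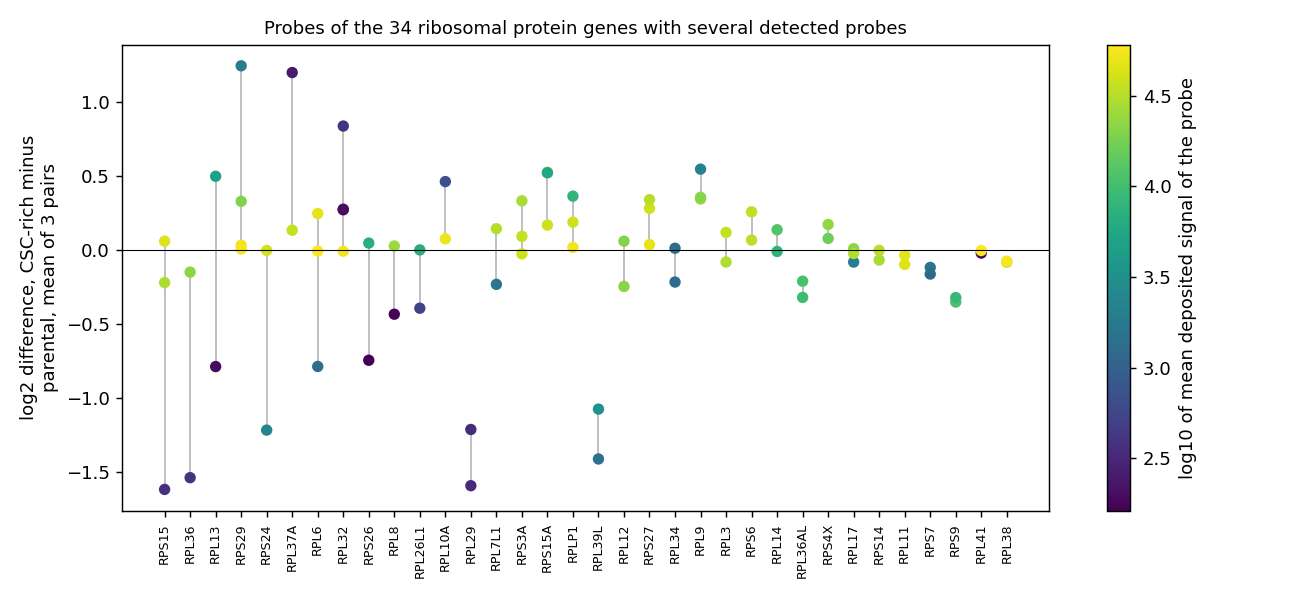
Log2 difference between CSC-rich and parental cells (mean of the 3 pairs) for each detected probe of the 34 genes with several, joined by a grey line per gene, ordered by the range and coloured by the log10 of the probe's mean deposited signal. In the genes at the left, RPS15 to RPS24, the probes lie at least 1.21 apart, and the RPL29 and RPL39L probes all lie below -1.

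Other genes of the ribosome pathway were read from lists. Of 40 measured ribosome biogenesis genes (44 listed), 0 passed limma's threshold and 5 had an unadjusted p under 0.05. In CSC-rich cells 14 were above and 26 below 0, with a median of -0.12. The counts of this and the next lists stand beside those of all 12101 genes. Of these, 0.859% were called higher and 1.49% lower, and 19.1% had an unadjusted limma p under 0.05. All genes split into 6118 above and 5983 below 0, with a median of 0.01. NHP2, a protein of H/ACA ribonucleoproteins that modify ribosomal RNA, was at -1.54 ± 0.55. NMD3, the export adaptor of the large subunit, was at 1.89 ± 0.71 and DDX21 at 1.69 ± 0.78. RRP1B, detected on 5 of the arrays, was at 1.28 ± 0.84. The values of NMD3, DDX21 and RRP1B came mainly from the PNAs-A15 pair. In the untreated and scramble pairs NMD3 was at 0.52 and 0.95, DDX21 at 0.05 and 0.75, and RRP1B at -0.05 and -0.25. In the PNAs-A15 pair NMD3 and DDX21 were at 4.21 and 4.27. RRP1B, undetected on the parental array of that pair, has only a bound there, a rise of 7.34-fold or more. For PNAs-A15 against scramble in parental cells NMD3 and DDX21 were at -3.93 and -4.31, below the -1.67 of RPS2, the lowest ribosomal protein gene, and RRP1B, undetected with PNAs-A15, was at least 9.55-fold lower. Of 15 other TOP genes of translation, 0 passed (0 at an unadjusted limma p under 0.05), with a median of 0.10. EIF4B, an initiation factor, had the largest population value of them (2.07 ± 0.93) and was at -5.04 for PNAs-A15 against scramble in parental cells. The list had a median of -0.68 in that comparison, and its values went both ways, with EIF3H at 1.16. Of 13 TOP and S6 kinase regulators 0 passed and 2 had an unadjusted limma p under 0.05, EIF4EBP1, a repressor of translation, at -1.56 ± 0.36 and MXI1 at 1.03 ± 0.43. The 7 snoRNA host genes had a median of -0.02, 0 past limma's threshold and 1 with an unadjusted p under 0.05, SNHG7 at -1.50 ± 0.62. FAU, whose product is cut to the small subunit protein RPS30, was at -0.09 ± 0.35.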

How the data were processed

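RNA of 6 samples was hybridised to Illumina HumanHT-12 v4 arrays. The authors deposited 1 table that gives, per probe and array, a signal intensity on a linear scale and a detection p-value. GenomeStudio 2011.1 is named in the submitters' processing notes, and the sources used here give no further step. The deposited series matrix held the same signal values (100%), neither centred nor normalized. Of 47323 probes, 30113 had 1 gene symbol in the platform annotation, 8 several and 17202 were not listed; 30074 matched a RefSeq gene ID. No build of the array design is given, and GRCh38.p14 served only for the RefSeq promoter sequences.

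Background was corrected by normexp in limma 3.58.1 (R 4.3.3), with negative controls inferred from the deposited detection p-value and an offset of 16, followed by quantile normalization and log2. The brightest probe detected on at least 2 arrays stood for a gene. limma's lmFit and eBayes fitted treatment and population additively, which leaves 2 residual degrees of freedom, with Benjamini-Hochberg adjustment over 12101 genes and a threshold of 0.05. Where a probe was undetected on the dim array, the fold is a bound against the lowest detected level there. Such bounds are in background-corrected, normalized values and can exceed the ratio of the deposited signals. Single arrays were compared by the number of genes 2-fold or more apart, with no test. The number of arrays limits the precision. The scripts were tested on simulated data. Alternatives were another normalization, offset, probe rule, filter and left-out arrays.

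The genes, the lists and the rule for named genes were chosen with earlier results of these data known. The rule named genes past the threshold, the 8 highest and 8 lowest of one sign in all pairs, the 5 highest and 5 lowest of the PNAs-A15 and CSC-rich scramble differences, the 3 brightest and 3 dimmest, the 5 with the widest probe ranges, paralog pairs, and up to 4 genes per list.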

Additional observations from a re-analysis of the deposited data

Results flagged for a closer look

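For 3 ribosomal protein genes the PNAs-A15 minus scramble difference was at least 2-fold and ran in opposite directions in the populations, with 1 array per group, so the difference between populations was not tested. RPS2 was -1.67 in parental and 2.43 in CSC-rich cells (log2), RPL8 was -1.21 and 1.05, and RPL24 was -1.14 and 1.02. In each gene the parental value rests on the parental PNAs-A15 array and the CSC-rich value on the CSC-rich scramble array, the arrays with the fewest detected probes (36.5% and 38.5%). Under median scaling the values were -0.83 and 2.16 for RPS2, -0.22 and 0.96 for RPL8, and -0.59 and 0.68 for RPL24, opposite in sign as before. Against the untreated CSC-rich array, PNAs-A15 was at 0.50, 0.19 and 0.22 for RPS2, RPL8 and RPL24.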

How the results depend on the processing

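Between the populations, 284 genes passed limma's threshold over the 6 arrays and 1 of them was a ribosomal protein gene. The count was 798 under median scaling (392 higher, 406 lower), 21 on unnormalized signals (2 higher, 19 lower; 0 ribosomal protein genes), 0 with no filter on dim probes (0 ribosomal protein genes), and 648 with population alone in the model (1 ribosomal protein gene). With population alone and without the CSC-rich scramble and parental PNAs-A15 arrays it was 3696 (11 ribosomal protein genes), to be set beside those 648. It was 2360 without either PNAs-A15 array (7 ribosomal protein genes), 92 without either scramble array (0 ribosomal protein genes), and 0 ribosomal protein genes passed without either untreated array. Leaving out 1 array removes the weight of its treatment pair, so the counts ran from 92 to 2360 genes and from 0 to 7 ribosomal protein genes. For PNAs-A15 against scramble, where 0 genes passed, 85 did under median scaling and 35 without either untreated array. Leaving out 1 array gave 0 to 3497 genes and 0 to 3 ribosomal protein genes, the highest of both without the CSC-rich PNAs-A15 array. The cause of these shifts was not tested.

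Over 6 pairs of arrays the ribosomal protein genes 2-fold apart summed to 50, to 91 under median scaling, to 77 on unnormalized signals and to 49 with undetected probes at their bound. For PNAs-A15 against scramble the 7 genes in parental cells became 37, 15 and 11 (median scaling, unnormalized signals, probes under a signal of 40000), and the 9 in CSC-rich cells became 14 on unnormalized signals. The family's median share of the signal, 5.31%, was 6.05% after subtraction of each array's median and 5.72% over detected probes. Genes whose probes were 2-fold apart numbered 7, 4 with probes detected on all 6 arrays and 3 on unnormalized signals. RPS23, the gene called between populations, kept its sign under every alternative run, between 1.74 and 2.03. The settings with the brightest probe under 40000, with undetected probes at their bound, without the paralogs and without the 2 arrays that stood apart were chosen after the data were seen. No paired analysis was possible because the labels carry no replicate numbers; the additive model itself compares the populations within the 3 treatments.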
